A study of Mus musculus with 16 samples.

Results

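The cytosolic ribosomal protein genes encode the proteins that, with ribosomal RNA, make up the large and the small subunit of the ribosome. They were chosen in the deposited table of mouse liver read counts by symbol: protein-coding genes named Rpl or Rps with a number, together with Rplp0, Rplp1, Rplp2 and Rpsa, without pseudogenes and without the Rps6k kinases. The symbol rule matched 89 genes, of which 6 were pseudogenes. Of the 83 protein-coding genes, Rpl10l, Rpl39l and Rpl3l had at most 0, 2 and 3 counts in any liver and missed the minimum of 10 counts in 4 livers. This left 80 genes, 48 of the large and 32 of the small subunit, of 53801 genes in the table, and all 80 were among the 14351 genes tested. Fau and Rpl36al, which also encode ribosomal proteins, have other symbols and were not counted among them.

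Livers came from mice with or without Degs1 in liver, on either of 2 diets. Degs1 encodes dihydroceramide desaturase, the last enzyme of ceramide synthesis, which turns dihydroceramides into ceramides. There were 4 groups of 4 livers: liver-specific Degs1 knockouts on a high-fat diet, controls on the high-fat diet, knockouts on normal chow and controls on normal chow. The labels used here do not give strain, sex, age, time on diet or the way the gene was deleted in liver. Each liver carries its own animal number, which is 61 to 92 for high-fat livers and 179 to 220 for chow livers. The numbers also run apart between genotypes within each diet, so anything that goes with the order of the animals cannot be told apart from diet or genotype. Livers are numbered 1 to 4 within a group, and group values are given as mean ± SD with n = 4.

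Ribosomal proteins are made in near-equal numbers, since each ribosome holds essentially a single copy of most of them, the acidic stalk proteins being the main exception. Their mRNAs begin with a run of pyrimidines, the terminal oligopyrimidine tract, through which mTORC1 and the binding protein LARP1 set how many of them are on ribosomes. Proteins made in excess of ribosomal RNA are degraded, and some free ribosomal proteins bind Mdm2 and thereby stabilise p53. In liver, ribosome content follows feeding and growth, and the ribosomes of hepatocytes make most plasma proteins.

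Total counts were 11938596 to 23250885 per liver, so 3 counts corresponded to 0.135 to 0.293 CPM (counts per 1000000 reads, with library totals scaled by TMM factors). Degs1 was at 41.6, 28.1, 26.1 and 29.2 CPM in the high-fat knockouts, against 60.2, 62.2, 101 and 70.3 CPM in the high-fat controls. It was at 39.3, 39.3, 37.4 and 35.9 CPM in the chow knockouts, against 85.5, 80.4, 87.9 and 84.9 CPM in the chow controls. Every knockout liver was below every control liver, as the labels have it. All 8 hepatocyte markers passed the count filter, as did all listed markers of macrophages, stellate cells, endothelium, cholangiocytes and erythroid cells and 7 of 10 of lymphocytes. No marker was at 0 in every liver. The share of reads assigned to sense-intronic and unconfirmed (TEC) transcripts, called the unspliced share here, varied between livers. High-fat control 3 had the lowest share, at 0.0218%, near the 0.0263% to 0.0411% of the chow controls. The other high-fat controls were spread over 0.0512% to 0.164%, all above it. High-fat control 3 also had the highest summed CPM of the ribosomal protein genes. The labels used here give no batch or RNA quality for it. Results on the members that rest on it are given with and without it.

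Compared per length, as RPKM (CPM per kilobase of transcript) averaged over the 16 livers, the most abundant members were Rps2 at 340, Rplp1 at 331, Rpl10 at 275, Rpl8 at 255 and Rpl4 at 244 RPKM. Rps2 lies at the mRNA entry of the small subunit, Rplp1 is a stalk protein that recruits elongation factors, and Rpl8 and Rpl10 lie near the site of peptide bond formation. The lowest were Rpl24 at 8.95, Rps15a at 9.01, Rps16 at 10.9 and Rpl13a at 11.1 RPKM. The median level was 97.3 RPKM over the large and 118 RPKM over the small subunit genes. The proteins are made in near-equal numbers, while the RPKM of their genes here ran from 8.95 to 340. Length was that of the principal annotated transcript, which for Rps15a is a model of 5130 bases, so its level is uncertain. How reads that match several places were treated is not stated in the labels used here, and most ribosomal protein genes have processed pseudogenes, so low levels such as those of Rpl24, Rps16 and Rpl13a are uncertain too. The 298 annotated Rpl and Rps pseudogenes took 0.512 to 0.978 reads for every 100 reads on the members.

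Summed over all 80 genes, ribosomal protein RNA was lowest in the high-fat knockouts, at 5224 ± 151 CPM. It was 7636 ± 2860 CPM in the high-fat controls, 8260 ± 1168 CPM in the chow knockouts and 9102 ± 316 CPM in the chow controls. As a share of raw counts the members took 0.607% ± 0.0221, 0.753% ± 0.204, 0.758% ± 0.114 and 0.846% ± 0.033, in the same order of groups. The large subunit genes summed to 3061, 2893, 3096 and 3031 CPM in the high-fat knockouts and to 3593, 3231, 6518 and 4056 CPM in the high-fat controls. They summed to 4352, 5724, 4127 and 4998 CPM in the chow knockouts and to 5197, 5137, 5593 and 5424 CPM in the chow controls. The 4 high-fat knockouts were below all 12 other livers, and high-fat control 3 was above all others.

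The small subunit genes gave the same order of livers at both ends. They summed to 2230, 2105, 2229 and 2248 CPM in the high-fat knockouts and to 2606, 2264, 5304 and 2972 CPM in the high-fat controls. They summed to 3231, 4018, 2984 and 3605 CPM in the chow knockouts and to 3692, 3664, 3893 and 3807 CPM in the chow controls. High-fat control 2, at 2264 CPM, lay just above the highest knockout. The spread between livers was narrow in the high-fat knockouts, where the median coefficient of variation of the 80 genes was 6.10%. It was 40.5% in the high-fat controls, 17.9% in the chow knockouts and 10.1% in the chow controls.

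**Figure D1:**
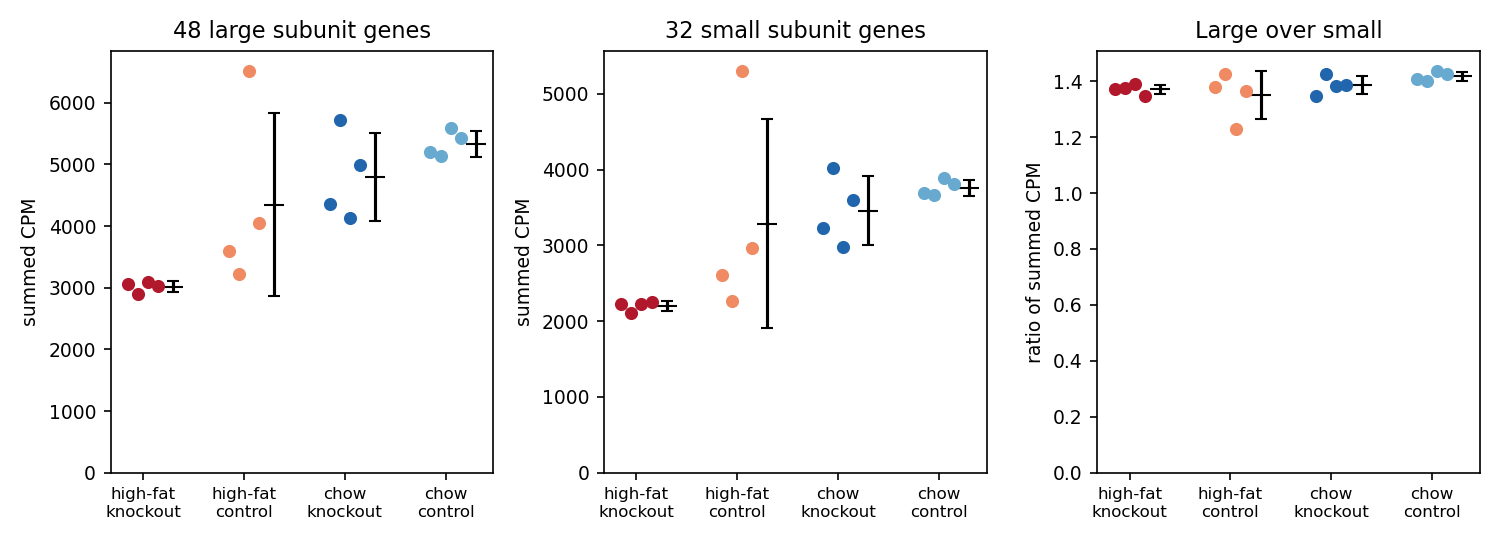
Summed CPM of the 48 large and the 32 small subunit genes, and the ratio of the sums, by group (points are livers; bars are mean ± SD, n = 4). The high-fat knockouts lie between 2893 and 3096 CPM for the large subunit, and high-fat control 3 lies highest in both sums and lowest in the ratio, at 1.23.

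High-fat diet against chow in knockouts asks what the diet did where Degs1 was deleted. Here 42 of 80 ribosomal protein genes fell, and 0 rose (edgeR quasi-likelihood test, Benjamini-Hochberg adjusted over all genes). This was 52.5% of the members, against 5.35% of all genes tested that fell. The median log2 fold change was -0.67 over the members and 0.02 over all genes, and 79 of 80 values were negative. In 69 of the 80 genes every high-fat knockout was below every chow knockout, against 12.4% of all genes. In bulk tissue, fewer cells of a type and less RNA per cell cannot be told apart. Summed hepatocyte markers, at 61955 to 84817 CPM in the high-fat knockouts against 121990 to 143410 CPM in the chow knockouts, were lower too, and 2 of the 8 fell. Markers of other cell types moved as well: 3 of 7 stellate, 2 of 7 macrophage and 1 of 7 lymphocyte markers rose, and 1 of 6 erythroid markers fell. The part of these cell types in the members' values was not tested. The unspliced share was 0.162% to 0.191% in the high-fat knockouts against 0.0463% to 0.0878% in the chow knockouts.

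The largest fall was that of Rpl36a (chrX:134585654-134588062, plus strand, GRCm38), whose protein lies near the exit site for tRNA in the large subunit. It was at 19.1, 17, 16.1 and 19.0 CPM in the high-fat knockouts, against 48.2, 48.6, 33.8 and 33.3 CPM in the chow knockouts. All high-fat values were lower than all chow values, and the log2 fold change was -1.20 (SE 0.19, edgeR adjusted p = 0.00237). Its near copy Rpl36al was at 17.6, 12.2, 11.4 and 14.5 CPM in the high-fat knockouts, against 19.2, 17.4, 19.1 and 18.9 CPM in the chow knockouts. Its log2 fold change was -0.42 (SE 0.24, edgeR adjusted p = 0.254).

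Rpl39, Rpl4 and Rpl17 line the tunnel through which the new peptide leaves. Rpl39 was at 29.2, 24.9, 21.6 and 23.9 CPM in the high-fat knockouts, against 81.0, 61.6, 37.4 and 44.9 CPM in the chow knockouts, which gave a log2 fold change of -1.17 (SE of 0.29, edgeR adjusted p = 0.0179). Rpl4 (chr9:64173375-64178666, plus strand) was at 269, 250, 303 and 268 CPM in the high-fat knockouts, against 400, 525, 401 and 450 CPM in the chow knockouts. Rpl4 fell by 0.71 on the log2 scale (SE 0.13, edgeR adjusted p = 0.00488), with no overlap between groups. Rpl17 had a log2 fold change of -1.0 (SE 0.32) that missed the threshold (edgeR adjusted p = 0.052).

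Rpl23 (chr11:97777527-97782437, minus strand), at the interface between the subunits and also a binder of Mdm2, was at 67.9, 61.0, 64.2 and 62.9 CPM in the high-fat knockouts. It was at 96.8, 145, 103 and 112 CPM in the chow knockouts, and its log2 fold change was -0.83 (SE 0.14, edgeR adjusted p = 0.00314). The groups did not overlap. Rpl6, on the outer face of the large subunit, fell by 0.87 (SE 0.17, edgeR adjusted p = 0.00641). Rpl5, which binds a small ribosomal RNA of the large subunit as well as Mdm2, fell by 0.93 (SE 0.22, edgeR adjusted p = 0.0142). Rpl7 fell by 0.85 (SE 0.20, edgeR adjusted p = 0.014) and Rpl3, near the site of peptide bond formation, by 0.63 (SE 0.19, edgeR adjusted p = 0.0378), all on the log2 scale.

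In the small subunit the lowest p belonged to Rps3a1 (chr3:86137940-86142702, minus strand), a protein of the platform near the mRNA exit. It was at 79.3, 74.4, 83.0 and 72.6 CPM in the high-fat knockouts, against 177, 198, 118 and 132 CPM in the chow knockouts. Its log2 fold change was -1.01 (SE 0.18, edgeR adjusted p = 0.00482). Rps6, the target of the S6 kinases downstream of mTORC1, was at 43.0, 39.3, 44.6 and 44.3 CPM in the high-fat knockouts, against 87.4, 116, 67.7 and 69.7 CPM in the chow knockouts. Rps6 fell by 0.99 on the log2 scale (SE 0.19, edgeR adjusted p = 0.00648). In both genes the groups did not overlap, and chow knockouts 1 and 2 were the highest of their group.

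Rps27a, made as a fusion with ubiquitin, fell by 0.87 on the log2 scale (SE 0.18, edgeR adjusted p = 0.00906). Rps4x, the X-linked form of its protein, fell by 0.68 (SE 0.14, edgeR adjusted p = 0.0079), and Rpsa, also known as the laminin receptor, by 0.70 (SE 0.18, edgeR adjusted p = 0.0195). None of the stalk genes passed the test: the log2 fold changes were -0.49 for Rplp0, which anchors the stalk, -0.44 for Rplp1 and -0.61 for Rplp2, with edgeR adjusted p = 0.111, 0.0538 and 0.0701. In all 3, every high-fat knockout was nevertheless below every chow knockout, most narrowly in Rplp2, whose highest high-fat value was 53.2 CPM and whose lowest chow value was 55.5 CPM.

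The member with the least change was Rpl24, a bridge protein between the subunits, at 5.09, 4.89, 6.24 and 5.19 CPM in the high-fat knockouts against 2.93, 5.33, 5.80 and 7.10 CPM in the chow knockouts. The groups overlapped, and the log2 fold change was 0.01 (SE 0.32, edgeR adjusted p = 0.993). Next came Rpl27, with -0.27 (SE 0.20, edgeR adjusted p = 0.395), and Rps14, a platform protein of the small subunit, with -0.28 (SE 0.26, edgeR adjusted p = 0.507). The 38 members that missed the threshold ranged from -1.13 for Rps16 (SE 0.44, edgeR adjusted p = 0.0984) to this value of Rpl24.

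Rpl22l1, Rpl7l1 and Rps27l are paralogs of core members. Rpl22l1, at 6.50, 8.33, 8.42 and 9.32 CPM in the high-fat knockouts against 14.9, 11.6, 12.3 and 19.8 CPM in the chow knockouts, fell by 0.85 on the log2 scale (SE 0.26, edgeR adjusted p = 0.0452). Its parent Rpl22 fell by 0.58 (SE 0.15, edgeR adjusted p = 0.0259). Rpl7l1, a factor of ribosome assembly, had -0.50 (SE 0.19, edgeR adjusted p = 0.0868). Rps27l, a p53 target in human cells, was at 89.1, 76.2, 68.3 and 91.6 CPM in the high-fat knockouts against 90.7, 127, 103 and 116 CPM in the chow knockouts. The groups of Rps27l overlapped, and its log2 fold change of -0.43 (SE 0.29) was not called (edgeR adjusted p = 0.341). The parent Rps27 had -0.78 (SE 0.25, edgeR adjusted p = 0.0534). Per length, Rps27l averaged 220 RPKM and Rps27 227 RPKM, whereas Rpl22l1 averaged 23.1 RPKM and Rpl22 147 RPKM.

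**Figure D2:**
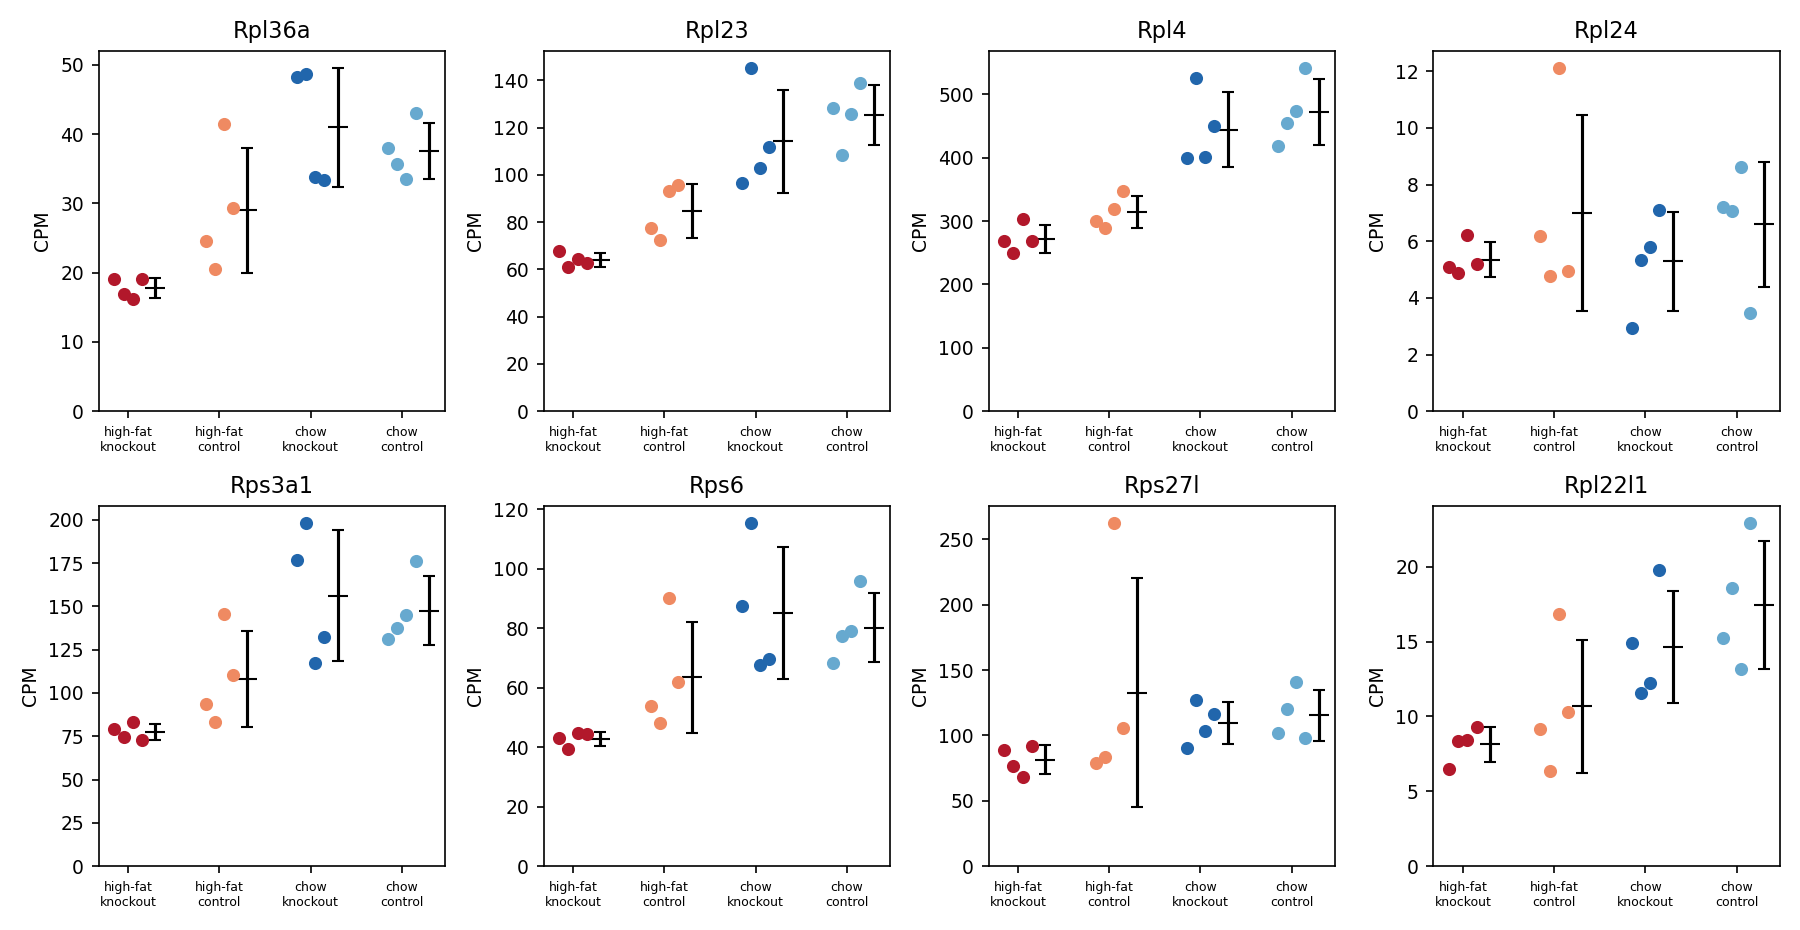
CPM of 8 ribosomal protein genes by group (points are livers; bars are mean ± SD, n = 4). In Rpl36a, Rpl23, Rpl4, Rps3a1, Rps6 and Rpl22l1 the high-fat knockouts lie below the chow knockouts, in Rpl24 and Rps27l they overlap, and high-fat control 3 is highest in Rps27l at 263 CPM.

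Of the 42 calls, 12 held in each of the 16 fits that left out a library: Rpl4, Rpl6, Rpl14, Rpl21, Rpl23, Rpl23a, Rpl28, Rpl36a, Rps3a1, Rps4x, Rps6 and Rps27a. The count fell to 12, 17, 17 and 23 without high-fat knockout 2, 1, 3 or 4. It was 13 and 19 without chow knockout 2 or 4, and 72 without high-fat control 3. Calls over all genes moved too, from 1516 with all livers to 465, 708, 803 and 1058, 535 and 758, and 2914 in the same order. With the log2 unspliced share as a covariate, 4 members were called, among 873 genes called in all, and the median was -0.18.

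High-fat diet against chow in controls put the same diet to livers with Degs1 intact, and with all livers 3 of 80 genes fell, against 0.885% of all genes tested that fell. They were Rpl4, Rpl28 and Rpl23, all of the large subunit, and 0 members rose. Rpl4 was at 299, 290, 319 and 348 CPM in the high-fat controls, against 419, 454, 474 and 542 CPM in the chow controls, which gave a difference of -0.59 on the log2 scale (SE 0.13, edgeR adjusted p = 0.0263). Rpl28, on the surface of the large subunit, was at 59.8, 53.2, 80.3 and 54.8 CPM in the high-fat controls, against 89.9, 101, 95.7 and 85.9 CPM in the chow controls. The log2 fold changes were -0.58 for Rpl28 (SE 0.14, edgeR adjusted p = 0.0433) and -0.56 for Rpl23 (SE 0.14, edgeR adjusted p = 0.0463). These 3 genes, with Rpl6 and Rps4x, were the 5 members in which every high-fat control was below every chow control, against 4.01% of all genes. The median over the members was -0.24, with 71 of 80 negative, and 0.01 over all genes.

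The count in controls rested on single livers. High-fat control 3 was above the mean of the other high-fat controls in all 80 members. Leaving it out therefore pushes these values down, and the calls made without it are no separate support for a fall. Without high-fat control 3, 50 of 80 members fell, 28 large and 22 small, against 2.18% of all genes in that fit. The median was -0.55, with all 80 values negative. Rpl28 then had -0.73 on the log2 scale (SE 0.12, edgeR adjusted p = 0.00297), Rpl22l1 -1.02 (SE 0.23, edgeR adjusted p = 0.0143) and Rpsa -0.66 (SE 0.14, edgeR adjusted p = 0.0108). The stalk genes were called as well, with -0.54 for Rplp0 (edgeR adjusted p = 0.0152), -0.59 for Rplp1 (0.00936) and -0.74 for Rplp2 (0.0168). Rps14, at -0.00 (SE 0.22, edgeR adjusted p = 0.998), and Rpl13a, at -0.13 (SE 0.22, edgeR adjusted p = 0.802), stayed nearest to no change. With all livers Rps14 had 0.32 (SE 0.26) and Rpl13a 0.25 (SE 0.27), the 2 highest values among the members. Without any one of chow controls 2, 3 and 4, high-fat controls 1 and 2, or high-fat knockout 4, 0 members passed. Without chow control 1, high-fat control 4, chow knockout 3 or 4, or high-fat knockout 1, 2 or 3, 1 passed. These fits called 100 to 298 genes in all, against 262 with all livers.

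**Figure D3:**
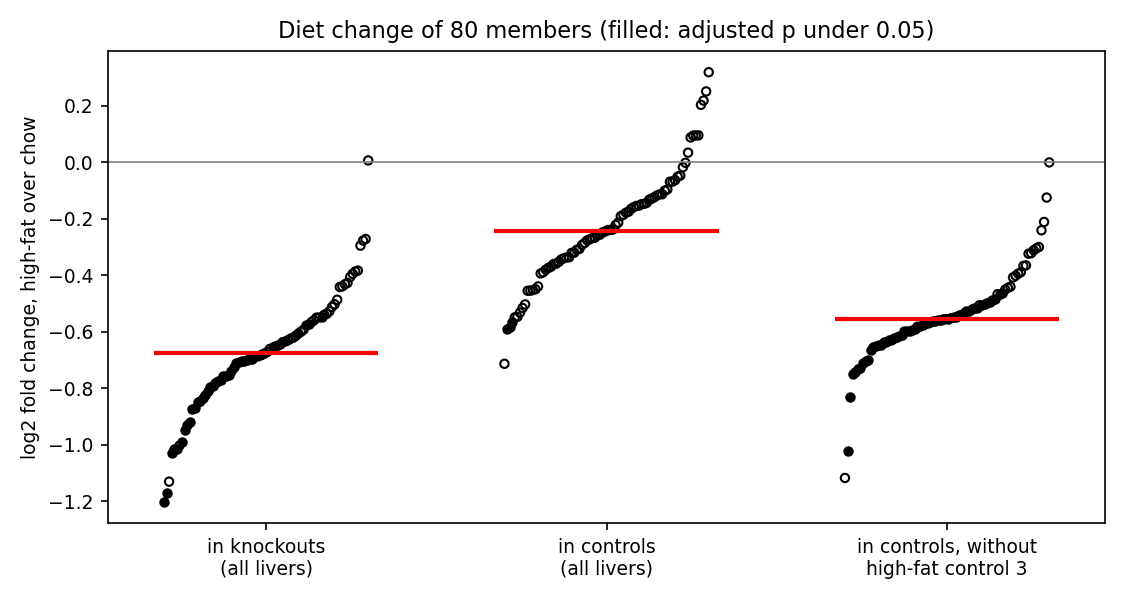
Log2 fold changes of the 80 members, high-fat diet over chow, sorted within knockouts, within controls, and within controls without high-fat control 3 (filled points have an edgeR adjusted p under 0.05; red lines are medians). The medians are -0.67, -0.24 and -0.55.

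High-fat control 3 held the highest CPM of all 16 livers in 54 of 80 members. Over the mean of the other 3 high-fat controls, its level was higher in all 80, with a median ratio of 1.97. The ratio ran from 1.02 for Rpl4 to 3.69 for Rps16, with medians of 1.87 over the large and 2.12 over the small subunit. It exceeded 2 in 20 of 32 small and 17 of 48 large subunit genes. The same liver had the lowest unspliced share of the 16 livers, and its Malat1, a nuclear noncoding RNA, was at 180 CPM, while the other high-fat controls had 1021 to 4028 CPM. The lowest CPM fell to a high-fat knockout in 68 of 80 members.

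Knockout against control on the high-fat diet puts the question of Degs1 loss under that diet. All 80 log2 fold changes were negative, with a median of -0.59 against 0.03 over all genes, yet 0 members passed the adjusted test, as against 0.111% of all genes. Unadjusted p was under 0.05 in 70 members, all lower, against 12.8% of all genes that were lower at that level. DESeq2, run on the whole table of 53801 genes, called 9 members among 579 genes called in all. Limma-voom called 0 members, among 31 of 14351 genes. Without the filter on low counts edgeR called 43 members, among 964 of 36204 genes. In 32 members, 23 large and 9 small, every knockout liver was below every control liver, against 7.78% of all genes. Hepatocyte markers summed to 61955 to 84817 CPM in the high-fat knockouts and 83563 to 120340 CPM in the high-fat controls, and macrophage markers to 354 to 660 CPM and 299 to 750 CPM. Stellate markers summed to 583 to 858 CPM in the high-fat knockouts and 470 to 661 CPM in the high-fat controls, and erythroid markers to 220 to 260 CPM and 268 to 817 CPM. Of the stellate markers 1 was called, Col1a1, which rose by 2.57 on the log2 scale (SE 0.35, edgeR adjusted p = 0.00376). No marker of the other cell types was called. The part of these cell types in the values was not tested.

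Rpl35, at the mouth of the peptide tunnel, was at 13.2, 13.5, 14.2 and 13.4 CPM in the high-fat knockouts, against 22.2, 15, 42.8 and 21.6 CPM in the high-fat controls. The log2 fold change was -0.90 (SE 0.24, edgeR adjusted p = 0.0981). Rps26, which contacts the mRNA near its exit, was at 33.1, 34.8, 31.8 and 40.5 CPM in the high-fat knockouts, against 47.7, 40.8, 82.0 and 53.1 CPM in the high-fat controls, with -0.67 (SE 0.18, edgeR adjusted p = 0.0981). In both, the groups did not overlap, and high-fat control 3 was the highest liver. Rpl36a followed with -0.70 (SE 0.19, edgeR adjusted p = 0.0983). With all livers the largest difference was that of Rpl17, with -0.99 (SE 0.32, edgeR adjusted p = 0.115), at 56.5, 53.1, 59.4 and 56.0 CPM in the high-fat knockouts against 69.9, 59.0, 236 and 83.4 CPM in the high-fat controls. The smallest was that of Rpl4, with -0.20 (SE 0.13, edgeR adjusted p = 0.355), the gene in which high-fat control 3 was closest to its group.

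Without high-fat control 3 the median of this comparison was -0.25, with 79 of 80 values negative and 0 members called. The values of these genes were then -0.51 for Rpl35 (SE 0.17, edgeR adjusted p = 0.242), -0.41 for Rps26 (SE 0.14, 0.249), -0.46 for Rpl36a (SE 0.16, 0.258) and -0.31 for Rpl17 (SE 0.17, 0.452). The order changed too: Rpl35 had the largest difference, and Rpl24 (0.03), Rps19 (-0.05) and Rpl22l1 (-0.07) lay nearer to 0 than Rpl4 (-0.18). Adding the log2 unspliced share to the model gave a median of -0.06, and offsets for transcript length and GC content gave -0.35, where all genes had -0.11. The share was 0.162% to 0.191% in the high-fat knockouts, and of the high-fat controls only liver 1, at 0.164%, reached that range. The part of the share and that of the genotype can therefore hardly be told apart. The high-fat controls also sit in the diet comparison of controls, and the high-fat knockouts in that of knockouts, so these comparisons share livers.

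Knockout against control on chow gave 0 called members, as against 0.0139% of all genes (DESeq2 and limma-voom also called 0). Unadjusted p was under 0.05 in 2 members, both lower, against 634 lower and 732 higher of 14351 genes tested. The 2 members were Rplp1, at 157, 151, 157 and 195 CPM in the chow knockouts against 235, 205, 235 and 187 CPM in the chow controls, and Rpl13. Their log2 fold changes were -0.38 for Rplp1 (SE 0.14, edgeR adjusted p = 0.454) and -0.46 for Rpl13 (SE 0.21, edgeR adjusted p = 0.509). The median was -0.15, with 64 of 80 negative, against -0.01 over all genes. In Rps26 alone, with -0.36 (SE 0.18, edgeR adjusted p = 0.534), every knockout was below every control, against 2.9% of all genes. Rpl5 and Rps27, each with 0.19, had the highest values. Chow knockouts 1 and 3, with the highest unspliced shares on chow at 0.0878% and 0.0825%, had the lowest sums of ribosomal protein RNA on chow. With that share as a covariate the median was 0.16, and with length and GC offsets it was -0.01, against -0.02 over all genes. The share was 0.0463% to 0.0878% in the chow knockouts and 0.0263% to 0.0411% in the chow controls, without overlap. Its part and that of the knockout therefore cannot be told apart by the covariate.

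**Figure D4:**
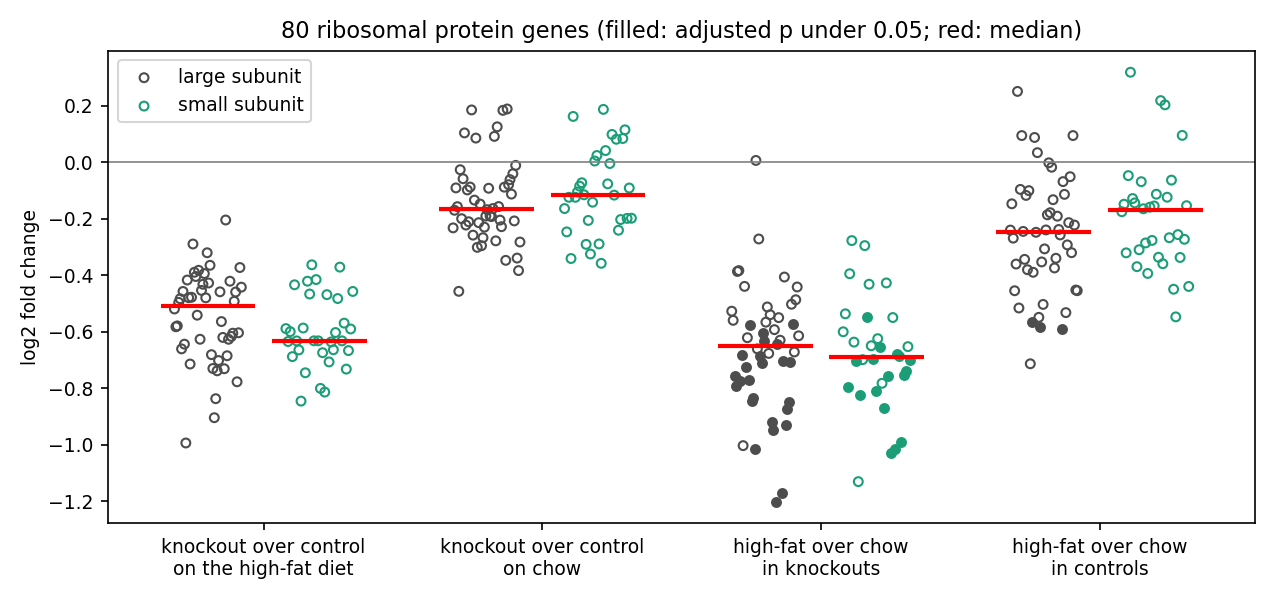
Log2 fold changes of the 48 large and 32 small subunit genes in the 4 comparisons (filled points have an edgeR adjusted p under 0.05; red lines are medians). The medians of large and small subunit genes lie at -0.65 and -0.69 for diet in knockouts and at -0.51 and -0.63 for knockout on the high-fat diet.

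The interaction, which asks whether the diet acted differently with and without Degs1, was not called in any member (0 of 80, against 0% of all genes). DESeq2 and limma-voom also called 0. Unadjusted p was under 0.05 in 13 members, all lower, against 845 lower and 770 higher of 14351 genes tested. The log2 values of the interaction were negative in 79 of 80, with a median of -0.44 against -0.01 over all genes. The lowest p belonged to Rpl36a, with -0.83 (SE 0.27, edgeR adjusted p = 0.279), Rps27 with -1.0 (SE 0.35, 0.309), and Rpl5 and Rpl35a with -0.81 (SE 0.31) and -0.93 (SE 0.35), both at edgeR adjusted p = 0.339. Without high-fat control 3 the median was -0.08. It was -0.19 with the unspliced share as a covariate and -0.34 with length and GC offsets, where all genes had -0.12.

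Large and small subunit genes are set side by side here by counts and medians, with no test of the difference. For diet in knockouts, 25 of 48 large subunit genes (52.1%) and 17 of 32 small subunit genes (53.1%) fell, with medians of -0.65 and -0.69. For diet in controls the medians were -0.25 and -0.17, for knockout on the high-fat diet -0.51 and -0.63, and for knockout on chow -0.17 and -0.12. Without high-fat control 3, knockout on the high-fat diet gave -0.26 for the large and -0.23 for the small subunit, so the sign of the difference between subunits turned with that liver. Diet in controls then gave -0.55 and -0.56. The ratio of the large to the small sum was 1.37 ± 0.0168 in the high-fat knockouts, 1.35 ± 0.085 in the high-fat controls, 1.39 ± 0.0318 in the chow knockouts and 1.42 ± 0.0159 in the chow controls. High-fat control 3 had the lowest ratio of all livers, at 1.23, against 1.36 to 1.43 in the other high-fat controls.

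The unspliced share tended to run opposite to the level of ribosomal protein RNA across the livers. It was 0.162% to 0.191% in the high-fat knockouts, 0.164%, 0.123%, 0.0218% and 0.0512% in the high-fat controls, 0.0463% to 0.0878% in the chow knockouts and 0.0263% to 0.0411% in the chow controls. Malat1 followed it, at 2949 to 3512 CPM, 4028, 2716, 180 and 1021 CPM, 690 to 1360 CPM and 249 to 666 CPM in the same order. High-fat controls 1 and 2, whose shares reached or neared those of the knockouts, had the lowest sums among the high-fat controls, at 6199 and 5495 CPM. Between them the order did not hold, since high-fat control 1 had both the higher share and the higher sum. With the log2 share as a covariate, the median for diet was -0.18 in knockouts and 0.06 in controls. In knockouts the share did not overlap between diets, so its part and that of the diet cannot be told apart. On chow the share did not overlap between genotypes either, so the same limit holds there.

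**Figure D5:**
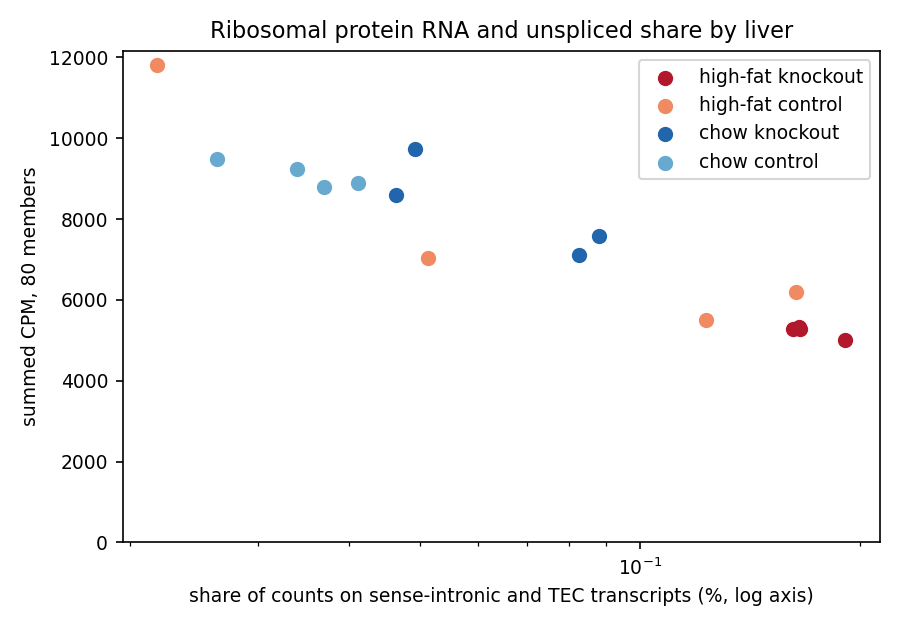
Summed CPM of the 80 members against the unspliced share of counts (percent, log axis), 1 point per liver, coloured by group. High-fat control 3 lies at the top left at 11822 CPM and 0.0218%, and the 4 high-fat knockouts lie at 4999 to 5325 CPM and 0.162% to 0.191%.

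Among related genes, a list of 29 mRNAs of translation factors and others known for terminal oligopyrimidine starts had 8 that fell with the diet in knockouts and 0 that rose, with a median of -0.46 and all 29 negative. Of all genes tested, 5.35% fell and 5.21% rose. Npm1, a nucleolar chaperone, fell by 0.81 on the log2 scale (SE 0.16, edgeR adjusted p = 0.00648), Naca, of the nascent chain complex, by 0.81 (SE 0.22, edgeR adjusted p = 0.0263), and Eif3e, an initiation factor subunit, by 0.65 (SE 0.17, edgeR adjusted p = 0.0264). Fau, which encodes a small subunit protein fused to a ubiquitin-like one, had -0.47 (edgeR adjusted p = 0.147). Of 39 ribosome biogenesis genes tested, 6 fell and 0 rose, beside the same 5.35% of all genes that fell, with a median of -0.37. These included Nop58, a box C/D particle protein, with -0.96 (SE 0.28, edgeR adjusted p = 0.0395), and Nmd3, the export adaptor of the large subunit, with -0.68 (SE 0.19, edgeR adjusted p = 0.0327).

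Of 14 regulators of ribosomal protein translation, Larp4, which binds poly(A), fell by 0.65 on the log2 scale (SE 0.11, edgeR adjusted p = 0.00428), and the list median was -0.18. This is 1 of 14 genes, near the share of all genes that fell. Of 9 noncoding host genes of snoRNAs 0 were called, with a median of 0.11. Of 12 genes of the p53 response, Rps27l among them, 3 rose, beside 5.21% of all genes: Gdf15, a stress hormone, by 2.46 (SE 0.37, edgeR adjusted p = 0.0015), Phlda3, a repressor of Akt, by 2.21 (SE 0.36, edgeR adjusted p = 0.003), and Bbc3, a mediator of apoptosis, by 1.25 (SE 0.31, edgeR adjusted p = 0.0181). For knockout against control on the high-fat diet 1 gene of these lists was called, Phlda3, with 2.42 (edgeR adjusted p = 0.0129). The medians there were -0.33 over the 29 oligopyrimidine mRNAs and -0.09 over the 39 biogenesis genes. They include high-fat control 3, and values of these lists without that liver were not computed. On chow, 0 genes of the lists were called.

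Since members moved together, the sequence around their starts is shown for some of the members described above, with and without the motif. RefSeq promoters (GRCm38.p6) were matched by symbol for 60 of 80 members. Within 20 bases either side of the annotated start, CTTTC or TTTCC, which can overlap, occurred on the sense strand in 24 of the 60 (40%), against 11.1% of the 27025 genes in the table. On the opposite strand either occurred in 5 (8.33%), against 10% of all genes. A run of 8 or more pyrimidines occurred in 30 of 60 (50%), against 18.4%. The share with either motif was 44.4% over 36 large and 33.3% over 24 small subunit genes. The sequences run from 40 bases before the start to 20 bases from it, and the capitals mark matches to either motif inside the searched window.
Rpl4, chr9:64173347-64173406, plus strand: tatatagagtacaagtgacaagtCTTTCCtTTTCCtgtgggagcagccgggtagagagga
Rpl28, chr7:4792925-4792984, plus strand: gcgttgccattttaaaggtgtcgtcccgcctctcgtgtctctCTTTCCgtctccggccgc
Rpl35, chr2:39005112-39005171, minus strand: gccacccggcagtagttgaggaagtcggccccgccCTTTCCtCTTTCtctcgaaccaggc
Rps27, chr3:90213629-90213688, minus strand: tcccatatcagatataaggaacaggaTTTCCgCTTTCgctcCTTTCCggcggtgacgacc
Rpl23, chr11:97782420-97782479, minus strand: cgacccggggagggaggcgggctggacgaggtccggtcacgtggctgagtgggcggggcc
Rpl36a, chrX:134585614-134585673, plus strand: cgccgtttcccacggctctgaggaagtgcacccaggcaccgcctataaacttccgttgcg
Rps3a1, chr3:86142649-86142708, minus strand: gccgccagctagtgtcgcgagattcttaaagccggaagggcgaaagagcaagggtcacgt

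Of the 3 members that fell with the diet in both genotypes, Rpl4 and Rpl28 hold the motif near the start and Rpl23 has none of these letters in the window. Rpl35 and Rps27 hold it, and Rpl36a and Rps3a1 do not. Of these, Rpl35, Rpl36a and Rps3a1 fell with the diet in knockouts, and Rps27 missed the threshold. With diet in knockouts the median log2 fold change was -0.69 over the 24 members with either motif, of which 15 fell, and -0.65 over the 36 without, of which 15 fell. Annotated starts can lie some bases from the start used in liver, and absence of the letters says only that they are not in this window.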

How the data were processed

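Total RNA of 16 mouse livers was depleted of ribosomal RNA (Ribo-Zero Gold) and made into TruSeq Stranded libraries, per the labels' protocols. The deposited counts are whole numbers of reads per gene, not normalised by the authors. The submitters' processing notes name the build GRCm38, STAR 2.5.4a, featureCounts 1.5.1 and DESeq2. They do not state the strand setting or how multiply mapped reads were treated. All 16 columns matched a sample title, and 53706 of 53801 gene IDs had a GENCODE annotation of the same build.

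Genes were filtered with filterByExpr (minimum count 10), scaled by TMM and tested with edgeR 4.0.16 in R 4.3.3: a quasi-likelihood F test, 1 term per group over all 16 livers, with Benjamini-Hochberg adjustment over 14351 genes and a threshold of 0.05. Log2 fold changes have SEs from the square root of F. The model was tested on simulated data. Counting error follows from the total counts, and tests use the spread between livers. No pair of livers agreed within sampling noise (chi-square per degree of freedom 12.3 to 126 in 24 pairs).

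Genes were named by a rule: in each comparison the 4 members of each subunit with the smallest p and the 2 highest and 2 lowest fold changes, the 4 lowest p in the interaction, the 4 highest and 4 lowest levels, the stalk genes, Rpsa, Rps6, paralogs with their parents, Fau and Rpl36al, and the 3 genes of each other list with the smallest p on the high-fat diet. Some were left out for length, and Npm1, Nop58, Larp4, Bbc3, Rpl14, Rpl21, Rpl23a, Rps19 and Col1a1 were named after their values were seen. The members, lists and rules were chosen with earlier results of these data known. Alternatives were DESeq2 1.42.0, limma-voom (limma 3.58.1), other scaling, no filter, only the groups compared, a covariate, length and GC offsets, and libraries left out. A fit with library totals alone, and a count of the main results that leaves out the paralogs, were added after seeing the data.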

Additional observations from a re-analysis of the deposited data

Results flagged for a closer look

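In 8 of 176 groups examined (40 named members and the summed levels), 1 liver lay far from the other 3 of its group. Chance flags about 1 in 20 groups. High-fat control 3 was high in Rpl17, at 236 CPM against 59.0 to 83.4 CPM, in Rplp0, at 433 CPM against 201 to 229 CPM, and in Rps27l, at 263 CPM against 78.5 to 106 CPM. High-fat knockout 2 was low in Rps27a, at 44.1 CPM against 48.1 to 48.5 CPM, and in the summed small subunit genes, at 2105 CPM against 2229 to 2248 CPM. High-fat knockout 3 was high in Rpl8, at 160 CPM against 154 CPM in its group. Chow knockout 4 was high in Rplp1, at 195 CPM against 151 to 157 CPM. Chow control 4 was high in Rplp2, at 111 CPM against 90.0 to 91.6 CPM.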

How the results depend on the processing

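The count of members that fell with the diet in knockouts was 42, and 25 with upper-quartile factors, 14 with library totals alone, 71 with only the groups compared, 4 with the unspliced covariate, 72 with length and GC offsets, 76 without high-fat control 3 and chow knockout 1, and 12 to 72 with each library left out. Genes called in all were 1516, and 1475, 3320, 2793, 873, 2867 and 3273 in the same order of settings. With each library left out they were 465 to 2914. The median for diet in knockouts was -0.33 with library totals alone, where all genes had 0.36. Relative to all genes it was -0.69, against -0.70 with TMM. The median was -0.18 with the covariate and -0.72 to -0.57 with each library left out, and the large minus small difference (0.04) was -0.055 with the covariate and 0.015 to 0.053 with each library left out. In controls the count of 3 was 1 with RLE, upper-quartile factors or library totals alone, 0 with only the groups compared, 14 with length and GC offsets, 58 without the 2 libraries and 0 to 50 with each left out. Genes called in all were 262 in controls, 265 with RLE, 270 with upper-quartile factors and 380 with library totals alone. They were 75 with only the groups compared, 339 with the offsets, 1219 without the 2 libraries and 100 to 955 with each left out. The median in controls was 0.063 with the covariate and -0.55 to -0.085 with each left out. The difference between subunits (-0.08) was 0.0048 without the 2 libraries and -0.11 to 0.0047 with each left out. For knockout on the high-fat diet the count of 0 was 9 by DESeq2, 43 without the filter and 0 with each library left out. The median was -0.063 with the covariate, -0.35 with length and GC offsets (-0.24 relative to all genes, against -0.61) and -0.73 to -0.25 with each left out, and the difference between subunits (0.12) was 0.054 with limma-voom, -0.037 with the covariate, -0.032 without the 2 libraries and -0.032 to 0.15 with each left out. For knockout on chow the median was 0.16 with the covariate, -0.012 with length and GC offsets (0.0084 relative to all genes, against -0.14) and -0.23 to -0.069 with each left out, and the difference between subunits (-0.05) was -0.13 with the covariate, 0.0088 without the 2 libraries and -0.081 to 0.0088 with each left out. The interaction count of 0 was 4 without the filter, among 259 of 36204 genes called. The median of the interaction was -0.15 without the 2 libraries and -0.19 with the covariate. It was -0.34 with length and GC offsets (-0.22 relative to all genes, against -0.43) and -0.59 to -0.083 with each left out.

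Of the values of named genes under these alternatives, 1742 kept their direction and their side of the threshold, 101 lost a call and 74 gained one. The following changed sign. With the covariate, knockout on the high-fat diet gave 0.091 for Rpl22, 0.13 for Rplp2, 0.11 for Rpl22l1, 0.21 for Rps27l and 0.041 for Rpl3, and diet in knockouts gave 0.24 for Rpl27 and 0.39 for Rps27l. Rpl27 had 0.074 with library totals alone. Rpl24 in diet in knockouts had -0.014 with length and GC offsets, -0.18 without the 2 libraries and, with each library left out, -0.17 (without chow knockout 1) to 0.18. In diet in controls, Rps14 had -0.00086 and Rpl13a -0.13 without both libraries, and with each left out Rps14 ran from -0.00099 (without high-fat control 3) to 0.51 and Rpl13a from -0.13 to 0.42. The cause was not tested in any of these. With Rpl7l1, Rpl22l1 and Rps27l left out of the main results, without a new fit, 41 members fell with the diet in knockouts. That count was given by the main calls, since Rpl22l1 was called and Rpl7l1 and Rps27l were not. No count or median of the other comparisons moved beyond its limits. No paired analysis was possible because every liver has a different animal number and none is shared between groups.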
